A study of Mus musculus with 45 samples.

Results

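The cadherins and protocadherins measured here are adhesion molecules of the cell surface, followed through the ectoderm and mesenchyme of the mouse face. They were taken as every row of the authors' model table whose symbol begins with Pcdh or consists of Cdh and digits only, with the endothelial gene Cdh5 left out. That gave 46 probe sets for 44 genes among the 9626 rows of that table. The rule itself uses symbols and no measured value, although per the design text the authors had kept only rows of higher variance in that table, so family genes of low variance are not among the 46. The family held 5 classical type I cadherins (Cdh1, Cdh2, Cdh3, Cdh4 and Cdh15), 7 probe sets for 6 type II cadherins (Cdh6, Cdh8, Cdh10, Cdh11, Cdh18 and Cdh20) and Cdh13. It also held 5 probe sets for 4 delta-1 protocadherins (Pcdh1, Pcdh7, Pcdh9 and Pcdh11x), 5 delta-2 protocadherins (Pcdh8, Pcdh10, Pcdh17, Pcdh18 and Pcdh19), 3 other single-gene protocadherins (Pcdh12, Pcdh15 and Pcdh20) and 20 genes of the beta cluster on chromosome 18.

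All samples came from wild-type embryos of the inbred strain C57BL6/J, with no transgene or treatment. Facial prominences (frontonasal, maxillary or mandibular) were dissected and treated with Dispase II so that the ectoderm could be lifted off as a sheet. Tissue pooled from several embryos was hybridised to 1 Affymetrix Mouse Gene 1.0 ST array. The 45 arrays formed 15 groups of 3 biological replicates. The embryonic days were E10.5, E11.5 and E12.5. The older 2 days had ectoderm and mesenchyme of every prominence, and E10.5 had the mandibular ectoderm, the mandibular mesenchyme and the frontonasal mesenchyme. The maxillary prominence and the frontonasal ectoderm at E10.5 are not analysed here. A pooled layer is a mixed tissue, and the peeled mesenchyme also holds vessels, nerves and, in the mandible, muscle precursors.

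Classical cadherins bind like cadherins on the neighbouring cell and hold the actin skeleton through catenins. Epithelia are typically joined by E-cadherin (Cdh1) and P-cadherin (Cdh3), whereas neural crest derived mesenchyme typically carries N-cadherin (Cdh2), Cdh6 and Cdh11. Protocadherins bind more weakly. The delta genes stand alone in the genome, while the beta genes lie side by side and in neurons each is switched on from its own promoter.

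Values are log2 signals after the authors' normalisation, so that a difference of 1 is a doubling. A probe set's level can be set against itself on other arrays, not against another probe set. Array medians lay between 5.97 and 6.22, and between 22008 and 26532 probe sets per array were detected (detection p below 0.05). The medians of 3 arrays stood apart, at 6.19 (frontonasal ectoderm E11.5 replicate 2), 6.22 (frontonasal ectoderm E12.5 replicate 3) and 6.17 (maxillary mesenchyme E12.5 replicate 1), against 5.97 to 6.12 for the other 42. No pair of arrays held identical values. Of the 46 probe sets, 24 were detected on all 45 arrays and 22 on fewer, down to 16 arrays for Pcdhb12. The layers matched their labels by markers: 18 of 18 epithelial probe sets were higher in ectoderm (median difference 3.30), and 13 of 15 mesenchymal ones were lower and 1 higher (median -2.37). Neither marker list was absent from the other layer. The mean of the epithelial markers was 7.07 to 7.79 on frontonasal mesenchyme arrays and 5.47 to 6.66 on mandibular and maxillary ones, against 9.15 to 9.78 on ectodermal arrays. Mesenchymal markers averaged 6.29 to 8.49 on ectodermal arrays and 8.42 to 10.33 on mesenchymal ones.

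The first comparison asks how the layers differ, over the 7 combinations of prominence and age with both, 21 arrays a layer. Ectoderm was marked by E-cadherin, P-cadherin and Pcdh7, and mesenchyme by Cdh11, Cdh2, Cdh6, Cdh10 and the delta-2 protocadherins Pcdh10, Pcdh17, Pcdh18 and Pcdh19. Of the 46 probe sets, 6 were higher in ectoderm and 31 lower (80.4% called, limma with Benjamini-Hochberg adjustment over 14472 probe sets, threshold 0.05). Over all probe sets tested, 69.6% were called, 35.9% higher and 33.7% lower. The lower share of the family, 67.4%, stood above that background. In this and the later comparisons the background was not limited to the 9626 rows of the authors' table, from which the family was drawn. The median difference was -0.20 for the family and 0.03 for all probe sets tested. In these bulk samples, fewer cells of a type and less RNA per cell cannot be told apart.

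Among the type I cadherins, Cdh1 lay between 10.38 and 10.90 on the ectodermal arrays, with a median of 10.64. On the mesenchymal arrays it lay between 5.59 and 8.68, with a median of 6.50. The layers did not overlap, and Cdh1 was 13.8-fold higher in ectoderm (difference 3.79 ± 0.09 SE, adjusted p = 6.04e-30). Cdh3, whose gene lies next to Cdh1, ran from 9.86 to 10.57 in ectoderm (median 10.30) and from 5.99 to 8.25 in mesenchyme (median 7.47). It did not overlap either and was 7.55-fold higher in ectoderm (2.92 ± 0.07, adjusted p = 2.62e-30). Cdh2 went the other way, with 6.45 to 9.47 in ectoderm (median 7.80) and 8.90 to 9.84 in mesenchyme (median 9.53). Its ranges overlapped through the frontonasal ectoderm at E11.5, and it was 3.29-fold lower in ectoderm (-1.72 ± 0.07, adjusted p = 1.75e-23). Cdh4 (R-cadherin, -0.34) and Cdh15 (M-cadherin of muscle cells, -0.35) were lower in ectoderm by less on average. For Cdh15 the difference was -0.97 at E11.5 and -1.15 at E12.5 in the mandibular prominence. In the other combinations it lay between -0.29 and 0.16.

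All 7 type II probe sets were lower in ectoderm on average over the combinations. Cdh11, a cadherin of mesenchyme and bone-forming cells, lay between 6.97 and 10.38 in ectoderm (median 9.50) and between 11.04 and 12.07 in mesenchyme (median 11.67). Every mesenchymal array was above every ectodermal one, and the fitted difference was 5.29-fold (-2.40 ± 0.11, adjusted p = 3.94e-21). Cdh10 was detected on 18 of 21 ectodermal arrays, at 3.48 to 5.36 (median 4.64), and in mesenchyme it lay between 4.58 and 7.52 (median 6.08). It was 3.02-fold lower in ectoderm (-1.59 ± 0.07, adjusted p = 1.19e-21). Cdh6, known from migrating neural crest, ran from 6.90 to 8.58 in ectoderm (median 7.79) and from 8.13 to 9.30 in mesenchyme (median 8.87), a 2.06-fold difference (-1.04 ± 0.05, adjusted p = 1.09e-19). Cdh20 (-0.33), Cdh8 (-0.19) and both Cdh18 probe sets (-0.22 and -0.14) were lower by less. Cdh13, a cadherin held in the membrane by a lipid anchor, was higher in ectoderm by 0.30.

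**Figure D1:**
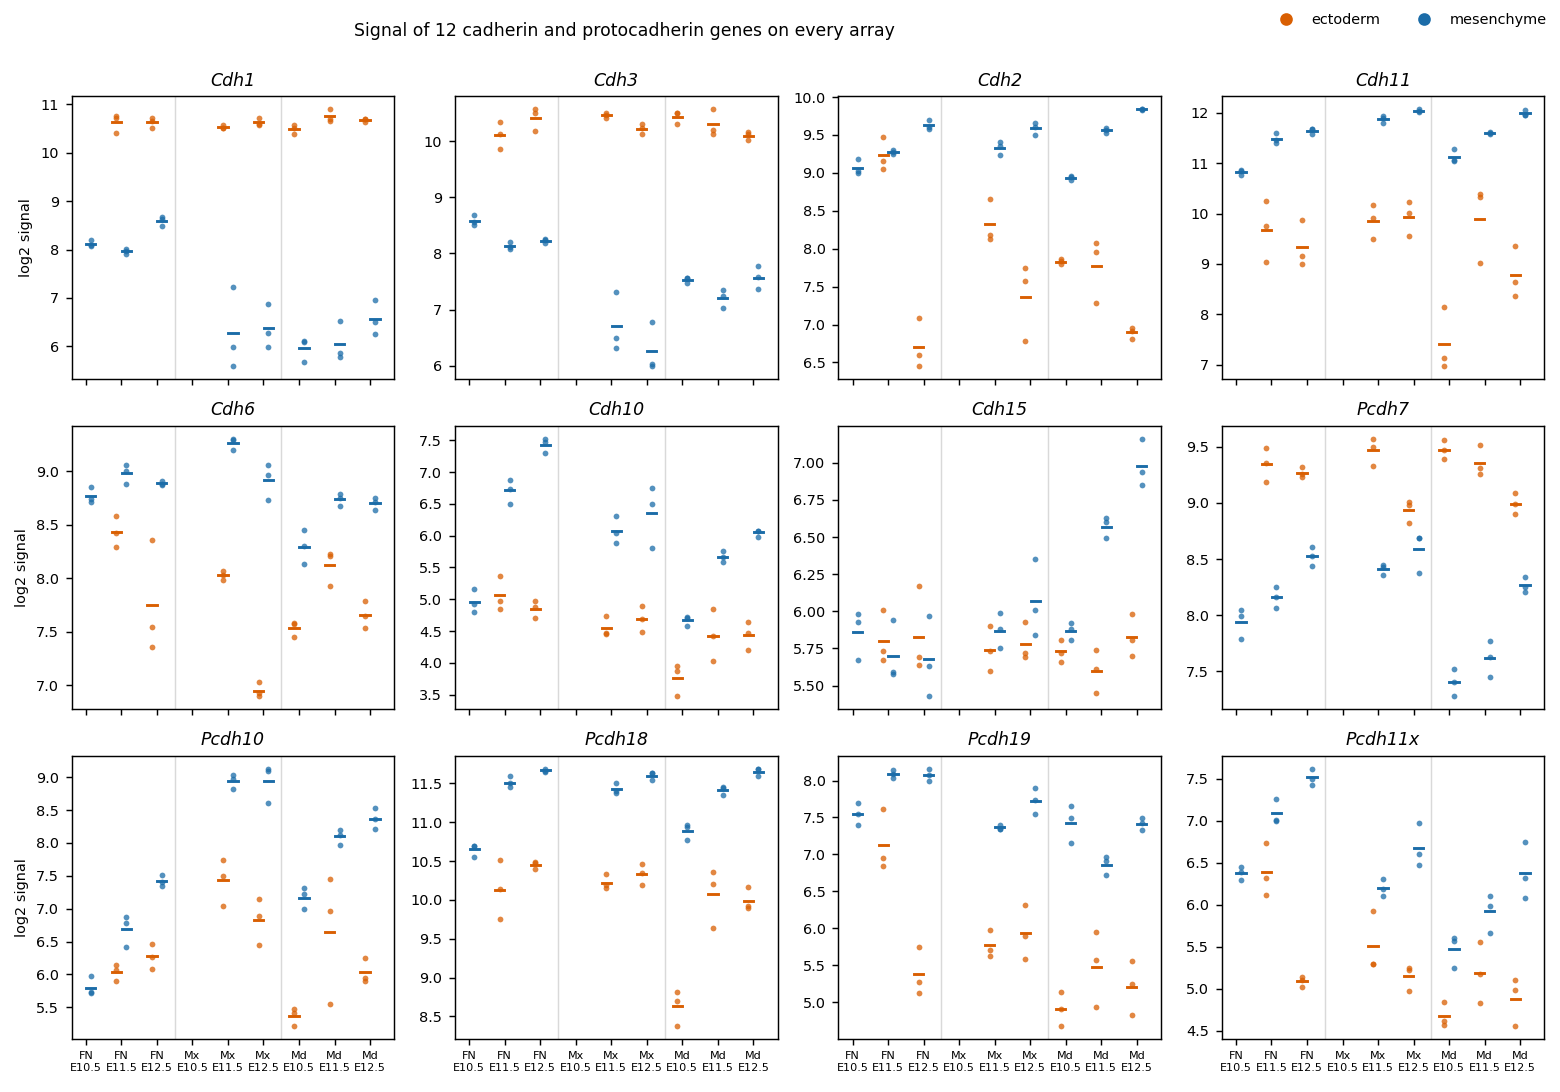
Log2 signal of 12 cadherins and protocadherins on every array, by prominence and embryonic day, with ectoderm in orange, mesenchyme in blue and a bar at each group's mean of 3 arrays. Cdh1 and Cdh3 are high on all ectodermal arrays, Cdh1 is raised in frontonasal mesenchyme (7.91 to 8.68 at E11.5 and E12.5), and Cdh2 in frontonasal ectoderm drops from 9.05 or more at E11.5 to 7.08 or less at E12.5.

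The delta protocadherins were divided between the layers. Pcdh7, whose frog counterpart NF-protocadherin holds embryonic ectoderm together, lay between 8.82 and 9.57 in ectoderm (median 9.31) and between 7.28 and 8.69 in mesenchyme (median 8.25). The layers did not overlap, and it was 2.18-fold higher in ectoderm (1.13 ± 0.04, adjusted p = 5.81e-25). Pcdh1 was also higher there (0.55 ± 0.05). Among the delta-2 genes, several of which bind the actin-regulating WAVE complex, 4 of 5 were lower in ectoderm. Pcdh18 ran from 8.38 to 10.51 in ectoderm and from 10.77 to 11.69 in mesenchyme, with no overlap and a 2.78-fold difference (means 9.98 and 11.45, difference -1.48 ± 0.05, adjusted p = 1.69e-24). Pcdh19 lay between 4.68 and 7.61 in ectoderm (median 5.58) and between 6.72 and 8.16 in mesenchyme (median 7.49), and was 3.68-fold lower in ectoderm (-1.88 ± 0.08, adjusted p = 2.74e-22). Pcdh10 lay between 5.22 and 7.74 (median 6.25) against 6.41 and 9.13 (median 8.12), a 2.98-fold difference (-1.57 ± 0.09, adjusted p = 1.99e-17). Pcdh17 was lower in ectoderm by 0.96 on the log2 scale (difference -0.96 ± 0.05). Pcdh8, whose frog counterpart is paraxial protocadherin, was not called (-0.01, adjusted p = 0.843).

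Of the other delta-1 genes, Pcdh11x was detected on 16 of 21 ectodermal arrays, at 4.56 to 6.74 (median 5.14), and ran from 5.25 to 7.62 in mesenchyme (median 6.32). It was 2.29-fold lower in ectoderm (-1.20 ± 0.07, adjusted p = 6.69e-18). The 2 Pcdh9 probe sets gave -0.56 and -0.57. Pcdh12, an endothelial protocadherin, was lower in ectoderm by 0.48 (difference -0.48 ± 0.07), beside 12 of 12 endothelial markers that were lower (median -1.99); their part in the result was not tested. Pcdh15, known from the tip links of hair cells, gave -0.19 and Pcdh20 gave 0.24. In the beta cluster 12 of 20 genes were lower in ectoderm and none was higher (median -0.17), where 33.7% of all probe sets tested were lower. Pcdhb6 differed by -0.58 ± 0.05. These averages joined unlike combinations. Pcdhb6 ran from -0.11 (mandibular, E10.5) to -1.06 (mandibular, E12.5), and Pcdhb4 from 0.17 (mandibular, E10.5) to -0.55 (maxillary, E12.5).

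For 4 of the delta genes that differed most between the layers, Pcdh7 on the ectodermal side and Pcdh10, Pcdh18 and Pcdh19 on the mesenchymal side, the 250 bases before the annotated start are shown to set them side by side. The sequences are RefSeq's on GRCm38.p6, each 5′ to 3′ on the gene's strand, with every CG pair in capitals. RefSeq windows were matched for 15 of the 44 genes, as 16 windows. Pcdh7 lies on the plus strand at chr5:57717831-57718080, and Pcdh10 on the plus strand at chr3:45378148-45378397. Pcdh18 lies on the minus strand at chr3:49757317-49757566, and Pcdh19 on the minus strand at chrX:133688994-133689243.
Pcdh7: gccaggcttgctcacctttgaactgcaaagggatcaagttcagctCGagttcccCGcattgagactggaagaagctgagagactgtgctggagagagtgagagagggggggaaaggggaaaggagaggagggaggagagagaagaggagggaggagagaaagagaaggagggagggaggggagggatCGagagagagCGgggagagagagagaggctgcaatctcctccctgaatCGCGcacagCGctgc
Pcdh10: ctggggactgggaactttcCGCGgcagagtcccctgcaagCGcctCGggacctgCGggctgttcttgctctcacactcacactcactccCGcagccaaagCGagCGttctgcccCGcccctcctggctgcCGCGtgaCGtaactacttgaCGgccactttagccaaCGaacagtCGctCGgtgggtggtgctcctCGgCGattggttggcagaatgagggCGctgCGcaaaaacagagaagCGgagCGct
Pcdh18: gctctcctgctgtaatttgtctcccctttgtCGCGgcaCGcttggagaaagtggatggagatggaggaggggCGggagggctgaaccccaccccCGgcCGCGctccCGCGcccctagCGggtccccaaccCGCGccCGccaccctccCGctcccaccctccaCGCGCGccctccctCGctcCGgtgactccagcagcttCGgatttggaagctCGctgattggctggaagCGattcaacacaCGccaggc
Pcdh19: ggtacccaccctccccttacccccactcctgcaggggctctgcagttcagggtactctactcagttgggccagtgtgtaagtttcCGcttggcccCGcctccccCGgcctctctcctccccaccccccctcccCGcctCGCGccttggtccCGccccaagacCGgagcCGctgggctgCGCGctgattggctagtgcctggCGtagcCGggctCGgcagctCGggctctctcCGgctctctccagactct
These stretches hold 7 CG pairs for Pcdh7, 22 for Pcdh10, 23 for Pcdh18 and 16 for Pcdh19. Over the whole 300-base windows, which add 50 bases after the start, Pcdh7 had 11 CG pairs, a number that 41.4% of all 32851 RefSeq windows reach. Pcdh10 had 24 (19.98% reach it), Pcdh18 had 23 (21.5%) and Pcdh19 had 18 (29.7%), against a median of 7. Windows of other genes lower in ectoderm ran from 2 CG pairs for Cdh10 to 26 for Pcdh17, with 8 for Cdh6. The E box CAGGTG, which on the other strand reads CACCTG and is the sequence that SNAIL and ZEB repressors bind, was searched on both strands. It was in 2 of the 16 family windows, those of Pcdh7 and Pcdh15, and in 20.2% of all windows. In Pcdh7 it lies just after the start, at chr5:57718101-57718130 on the plus strand, with the E box in capitals: gcgggccgaatgCAGGTGagggaaggcacg. The match describes the letters of the window only.

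The proteins that work with classical cadherins also differed between the layers. These lists were chosen with earlier results of these data known. Of 15 tested genes of catenins and junction partners, 13 were higher in ectoderm and 2 lower (median 1.26), led by Nectin4 (2.35), Ctnnd2 (delta-catenin, 2.13), Jup (plakoglobin, 1.87) and Ctnnal1 (1.79). All 8 tested genes of the SNAIL, ZEB, TWIST and E protein families, known repressors of Cdh1, were lower in ectoderm (median -1.86), with Zeb1 at -2.80, Twist1 at -2.58, Twist2 at -2.25 and Zeb2 at -2.16. Among 14 listed regulators of epithelial cells 13 were higher (median 1.39), led by Esrp1 (4.12), Trp63 (3.67), Grhl3 (3.54) and Grhl2 (3.19). Of the genes named, Esrp1, Trp63, Grhl2 and Twist1 were also on the epithelial or mesenchymal marker list. Other members of the superfamily had 32 probe sets for 19 genes, and 11 of these probe sets were higher and 19 lower. The desmosomal cadherins Dsc2 (3.34), Dsg2 (3.01) and Dsc3 (2.97) were higher in ectoderm and the large cadherin Fat4 (-2.26) was lower.

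**Figure D2:**
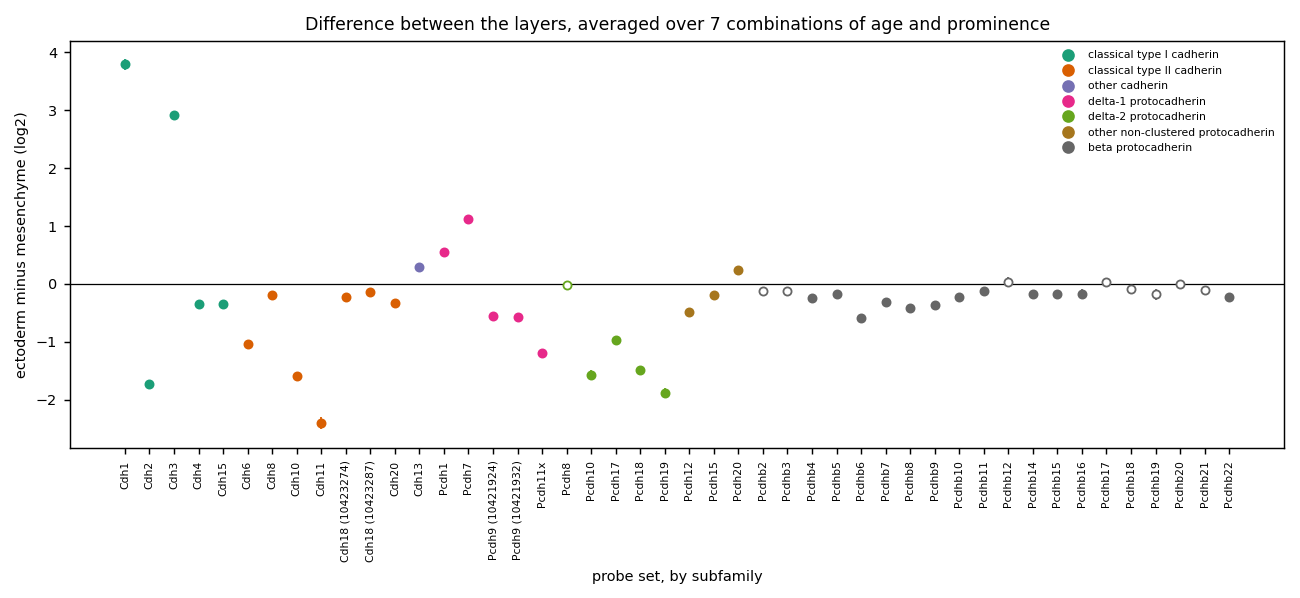
Ectoderm minus mesenchyme for each of the 46 probe sets, in log2 units averaged over 7 combinations of prominence and age and grouped by subfamily; filled points passed the test and bars are standard errors. Cdh1 (3.79), Cdh3 (2.92) and Pcdh7 (1.13) stand highest above 0, and Cdh11 (-2.40) is lowest.

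The layer differences were not of one size. Cdh1 differed by 2.66 at E11.5 and 2.03 at E12.5 in the frontonasal prominence and by 4.10 to 4.69 in the other 5 combinations. Cdh2 differed by -0.05 in the frontonasal prominence at E11.5 and by -2.92 there at E12.5. The Pcdh7 difference ran from 2.07 in the mandibular prominence at E10.5 down to 0.35 in the maxillary prominence at E12.5. Several averages joined combinations of opposite sign. Pcdh20 ran from -0.51 (mandibular, E10.5) to 1.34 (maxillary, E12.5). Cdh8 was above 0 in 3 of 7 combinations, from 0.46 (mandibular, E10.5) to -0.96 (maxillary, E12.5). Cdh4 ran from 0.24 (mandibular, E10.5) to -0.96 (mandibular, E12.5), and the second Pcdh9 probe set from 0.44 to -1.17 in those combinations. Among the type II cadherins only Cdh6, Cdh10 and Cdh11 were below 0 in all 7 combinations, and Cdh8, Cdh20 and both Cdh18 probe sets were not. Leaving out the frontonasal groups gave 35 calls, 6 higher and 29 lower.

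The second comparison asks how the prominences differ within a layer, averaged over E11.5 and E12.5, with 6 arrays a prominence. In frontonasal against mandibular mesenchyme, Cdh1, Cdh10, Pcdh11x, Pcdh19, Cdh3 and Pcdh20 were higher and Pcdh10 and Cdh15 lower. The family had 10 higher and 6 lower of 46 (34.8% called), where 20.3% of all probe sets were called, 11.8% higher and 8.48% lower. Cdh1 lay between 7.91 and 8.68 in frontonasal mesenchyme (median 8.25) and between 5.78 and 6.96 in mandibular mesenchyme (median 6.38), with no overlap and a 3.93-fold difference (1.97 ± 0.17, adjusted p = 3.75e-12). Epithelial markers were higher in the same comparison (14 of 18 higher, 1 lower, median 1.26), as were 8 of 8 neuroepithelial and placode markers (median 2.46). The placode markers averaged 7.10 to 7.78 on frontonasal and 5.20 to 5.75 on other mesenchyme arrays, and the part of either list in the Cdh1 difference was not tested.

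Cdh10 ran from 6.50 to 7.52 in frontonasal mesenchyme (median 7.09) and from 5.58 to 6.08 in mandibular mesenchyme (median 5.87), and was 2.32-fold higher (1.21 ± 0.13, adjusted p = 1.46e-09). Pcdh11x ran from 7.0 to 7.62 (median 7.34) against 5.66 to 6.75 (median 6.10), a 2.22-fold difference (1.15 ± 0.13, adjusted p = 4.49e-09). Neither overlapped. Pcdh19 (0.94), Cdh3 (0.79), Pcdh20 (0.77), Pcdh8 (0.66), Pcdh15 (0.52), Cdh20 (0.51) and Pcdh7 (0.40) were also higher. Beside these genes, 8 of 11 neuronal markers were higher and 2 lower (median 1.72, lowest -0.96), and their part was not tested.

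Pcdh10 was lowest in the frontonasal mesenchyme, at 6.41 to 7.52 (median 7.12), against 7.97 to 8.53 in mandibular (median 8.21) and 8.61 to 9.13 in maxillary mesenchyme (median 9.0). The 3 ranges did not overlap. Frontonasal signal was 2.26-fold below mandibular (-1.18 ± 0.18, adjusted p = 1.69e-06) and 3.7-fold below maxillary (-1.89 ± 0.18, adjusted p = 7.92e-11), and maxillary was 1.64-fold above mandibular (0.71 ± 0.18, adjusted p = 0.00451). Cdh15 was highest in mandibular mesenchyme, at 6.49 to 7.16 (median 6.74), against 5.43 to 5.97 in frontonasal (median 5.61) and 5.75 to 6.35 in maxillary mesenchyme (median 5.94). Frontonasal signal was 2.13-fold lower (-1.09 ± 0.10, adjusted p = 4.16e-11) and maxillary 1.75-fold lower (-0.81 ± 0.10, adjusted p = 1.13e-07). Skeletal muscle markers moved with it: 12 of 12 were lower in frontonasal (median -1.71) and 11 of 12 in maxillary mesenchyme (median -1.34). They averaged 6.71 to 6.80 at E11.5 and 7.73 to 8.02 at E12.5 on mandibular arrays, and their part was not tested.

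Maxillary against mandibular mesenchyme gave 8 higher and 5 lower (28.3% of the family, background 9.98%, with 4.15% higher and 5.84% lower). Pcdh10, Pcdh17 (0.59), Pcdh7 (0.56), Pcdh8 (0.51), both Pcdh9 probe sets (0.42 and 0.45), Cdh8 (0.39) and Cdh6 (0.37) were higher. Cdh3 (-0.90), Cdh15, Cdh13 (-0.42), Pcdhb9 (-0.36) and Cdh4 (-0.34) were lower. Beside these genes 8 of 11 neuronal markers were higher and 1 lower (median 0.79), with Stmn2 at 1.99, as were 3 of 8 glial and crest markers with 1 lower (median 0.22), with Fabp7 at 1.11; their part was not tested. Frontonasal against maxillary mesenchyme gave 9 higher and 6 lower (32.6%, background 18.8%, with 11.8% higher and 6.99% lower). Cdh3 lay at 5.99 to 7.31 in maxillary mesenchyme (median 6.41), overlapping the mandibular range of 7.03 to 7.77, and at 8.08 to 8.25 in frontonasal mesenchyme (median 8.20), a 3.23-fold difference (1.69 ± 0.12, adjusted p = 1.77e-13). Cdh1 was 3.9-fold higher in frontonasal than in maxillary mesenchyme (1.97 ± 0.17, adjusted p = 6.6e-12), beside 15 of 18 epithelial markers (median 1.35), whose part was not tested.

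In ectoderm, frontonasal against mandibular tissue gave 12 higher and 5 lower (37% of the family, background 23.1%, with 11.3% higher and 11.8% lower). The higher genes included Pcdh19 at 0.91, Pcdh20 at 0.82, Pcdh11x at 0.71, Cdh2 at 0.63, Pcdh17 at 0.59, Pcdh15 at 0.54 and Cdh10 at 0.52. For 4 of them these averages stand for unlike ages. The difference was 1.67 at E11.5 and -0.03 at E12.5 for Pcdh20, 1.65 and 0.17 for Pcdh19, 1.45 and -0.19 for Cdh2, and 1.21 and 0.20 for Pcdh11x. Pcdh17 (0.74 and 0.45), Cdh10 (0.62 and 0.41) and Pcdh15 (0.32 and 0.76) were above 0 at both ages. All 5 lower genes were beta protocadherins (Pcdhb19 -0.68, Pcdhb16 -0.38, Pcdhb17 -0.37, Pcdhb21 -0.31 and Pcdhb22 -0.28). A fit on the compared groups alone kept 8 calls, all higher, and leaving out the 3 arrays with high medians gave 11, of which 10 were higher. Centring arrays on their medians turned the split to 9 higher and 7 lower. Of the 8 placode markers, 7 were higher (median 1.23), while Sox2 went the other way. Neuronal markers averaged 7.04 in frontonasal and 5.70 in mandibular ectoderm at E11.5. At E12.5 these means were 5.51 and 5.47. The part of either list was not tested.

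Maxillary against mandibular ectoderm gave 7 higher and 3 lower (21.7% of the family, background 5.04%, with 3.03% higher and 2.01% lower). Pcdh10 (0.78), Pcdh17 (0.63), both Pcdh9 probe sets (0.56 and 0.58), Cdh2 (0.51), Pcdh19 (0.50) and Pcdh20 (0.43) were higher. Cdh6 (-0.40), Cdh8 (-0.30) and a Cdh18 probe set (-0.21) were lower. Both Pcdh9 probe sets, Pcdh10 and Pcdh17 were thus higher in maxillary than in mandibular tissue in both layers. In the ectodermal comparison 2 of 15 mesenchymal markers were also higher and 0 lower, with differences from 0.04 to 0.80. Their median was 0.40, against 0.01 for all probe sets tested, and their part in the ectodermal result was not tested. Frontonasal against maxillary ectoderm gave 6 higher and 1 lower (15.2%, background 9.24%, with 4.31% higher and 4.93% lower), with Cdh6 at 0.60 and Pcdh10 at -0.97. Beside them 6 of 11 neuronal markers were higher and 0 lower (median 0.75), 5 of 8 placode markers were higher and 1 lower (median 0.53), and 4 of 15 mesenchymal markers were lower and 1 higher (median -0.21), with Postn at -1.62; their part was not tested. Those 7 calls became 4 without replicate 3 of frontonasal ectoderm at E12.5, and 2 in a fit on the compared groups alone.

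**Figure D3:**
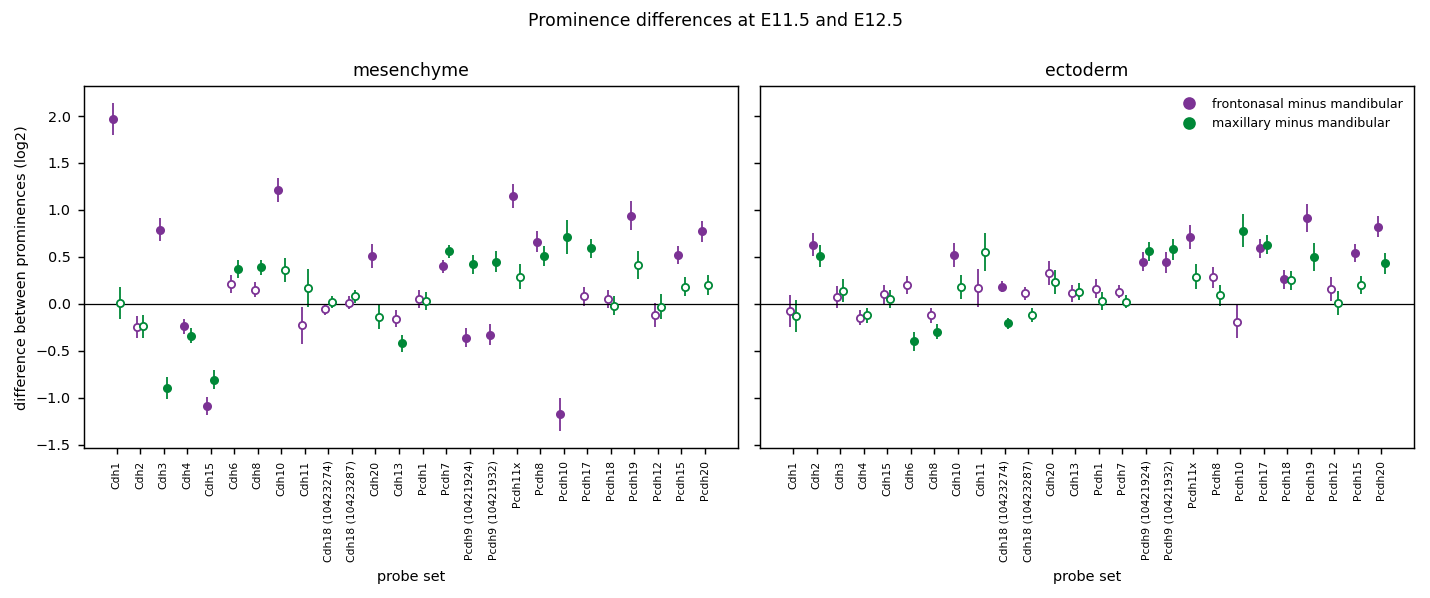
Differences between prominences for the 26 probe sets outside the beta cluster, in log2 units averaged over E11.5 and E12.5, with mesenchyme and ectoderm in separate panels; purple marks frontonasal minus mandibular, green maxillary minus mandibular, and bars are standard errors. In mesenchyme Cdh1 (1.97) lies highest, and Pcdh10 is below 0 for the purple point (-1.18) and above 0 for the green point (0.71).

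The third comparison asks how the family changed with age within a layer. From E10.5 to E11.5, mesenchyme (frontonasal and mandibular, 6 arrays an age) had 31 probe sets that rose and 1 that fell (69.6% of the family), against 26.1% called in all, 14.8% higher and 11.3% lower. The median difference was 0.40 for the family and -0.02 for all probe sets tested. Pcdh9 rose most. Its second probe set read 6.14, 6.21 and 6.26 in frontonasal mesenchyme at E10.5 and 7.57, 7.42 and 7.41 at E11.5. In mandibular mesenchyme it went from 6.15, 6.32 and 5.99 to 7.77, 8.33 and 8.27. The ages did not overlap, and the rise was 3.07-fold (1.62 ± 0.11, adjusted p = 1.11e-13), with 2.82-fold (1.50 ± 0.10, adjusted p = 8.22e-14) for the first probe set.

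Cdh10 read 5.16, 4.80 and 4.93 in frontonasal mesenchyme at E10.5 and 6.74, 6.88 and 6.50 at E11.5. In mandibular mesenchyme it went from 4.71, 4.58 and 4.72 to 5.66, 5.76 and 5.58, so that no E10.5 array reached an E11.5 array (2.58-fold, 1.37 ± 0.13, adjusted p = 2.28e-10). Pcdh10 (0.91), Pcdh18 (0.69), Pcdh11x (0.58), Cdh11 (0.56) and Cdh2 (0.42) also rose, and Cdh3 fell by 0.39 (difference -0.39). Mesenchymal markers rose in 10 of 15 cases (median 0.54), and their part was not tested.

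From E11.5 to E12.5, mesenchyme (9 arrays an age) had 36 probe sets that rose and none that fell (78.3%, background 36.7%, with 19.4% higher and 17.3% lower). The median was 0.41, against 0.02 for all probe sets tested. Outside the beta cluster the rises were of at most 0.74. Cdh18 rose by 0.74 and 0.52 on its probe sets, Cdh13 and Pcdh9 by 0.54, Cdh10 and Pcdh11x by 0.46, Cdh1 by 0.42 and Pcdh7 by 0.40. Epithelial markers rose in 7 of 18 cases (median 0.14) and mesenchymal markers in 9 of 15 (median 0.72); their part was not tested.

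From E10.5 to E11.5, ectoderm could be compared in the mandibular prominence only, with 3 arrays an age. There 21 probe sets rose and none fell (45.7%, background 18.4%, with 11.4% higher and 6.95% lower). Cdh11 read 7.13, 6.97 and 8.14 at E10.5 and 9.01, 10.32 and 10.38 at E11.5, a 5.62-fold rise (2.49 ± 0.29, adjusted p = 3.84e-08). Pcdh18 went from 8.70, 8.38 and 8.81 to 9.64, 10.20 and 10.36, a 2.71-fold rise (1.44 ± 0.14, adjusted p = 6.43e-10). Pcdh10 went from 5.48, 5.41 and 5.22 to 5.55, 6.96 and 7.45, a 2.43-fold rise (1.28 ± 0.25, adjusted p = 0.00023). None of the 3 overlapped, and the first E11.5 array of Pcdh10 lay close to its E10.5 arrays.

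These 3 genes were higher in mesenchyme than in ectoderm, and mesenchymal markers also rose in the mandibular ectoderm: 13 of 15 rose (median 1.49), with array means of 6.29 to 6.67 at E10.5 and 7.30 to 8.36 at E11.5. Endothelial markers rose in 8 of 12 cases (median 0.68), and 7 of 8 repressors rose (median 0.97). Twist1, which was on both the mesenchymal and the repressor list, rose by 3.11. The part of these lists in the result was not tested. Cdh10 was detected on none of the 3 arrays at E10.5, and its signal was 1.58-fold higher at E11.5. That fold is a point estimate from undetected signal, without its error. The 21 calls became 11 without replicate 3 of mandibular ectoderm at E11.5, and Pcdh10 was no longer called in a fit on the compared groups alone (adjusted p = 0.0526).

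From E11.5 to E12.5 the ectoderm (9 arrays an age) had 17 probe sets that rose and 9 that fell (56.5%, background 28.7%, with 11.9% higher and 16.8% lower). N-cadherin fell most. Cdh2 read 9.47, 9.16 and 9.05 in frontonasal ectoderm at E11.5 and 6.45, 6.60 and 7.08 at E12.5. In maxillary ectoderm it went from 8.65, 8.13 and 8.18 to 7.74, 7.57 and 6.78, and in mandibular ectoderm from 7.29, 7.95 and 8.08 to 6.81, 6.92 and 6.96. Within each prominence every E12.5 array lay below every E11.5 array, and the mean fall was 2.73-fold (-1.45 ± 0.10, adjusted p = 4.14e-14), with -2.52 in frontonasal, -0.96 in maxillary and -0.88 in mandibular ectoderm.

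Cdh6 fell by 0.74 (difference -0.74), Pcdh11x by 0.66 (-0.66), Pcdh19 by 0.62 (-0.62), Cdh8 by 0.51 (-0.51), Cdh11 by 0.46 (-0.46) and Pcdh7 by 0.33 (-0.33). Pcdh19 and Pcdh11x differed most in the frontonasal ectoderm (-1.75 and -1.31), against -0.27 and -0.30 in the mandibular and 0.16 and -0.36 in the maxillary ectoderm. Placode markers averaged 7.46 to 8.07 in frontonasal ectoderm at E11.5 and 5.90 to 6.10 at E12.5. Of the 8 placode markers 5 fell over the layer, as did 10 of 11 neuronal markers (median -0.76), and their part was not tested. Averaged over the mandibular and maxillary prominences only, an alternative added after the data were seen, 12 probe sets rose and 5 fell, 16 of them among the 26 calls over all prominences. In that average Pcdh19 (-0.05, adjusted p = 0.884) and Pcdh11x (-0.33, adjusted p = 0.0705) were not called, and Cdh2 was (-0.92, adjusted p = 3.81e-07).

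Pcdh20, picked out after its values were seen, moved in opposite directions in the ectoderm of different prominences. In frontonasal ectoderm it went from 7.36, 6.47 and 6.91 at E11.5 to 5.81, 6.0 and 5.67 at E12.5 (difference -1.09). In maxillary ectoderm it went from 5.14, 5.42 and 5.10 to 6.92, 6.87 and 6.42 (1.52), and in mandibular ectoderm from 5.29, 5.19 and 5.26 to 6.07, 5.92 and 5.59 (0.61). The ages did not overlap in any of the 3 prominences. In the authors' deposited table the three-way term of age, prominence and layer had a q-value of 1.8e-08 for Pcdh20, 6.69e-06 for Cdh2, 7.79e-05 for Pcdh19 and 0.000313 for Pcdh11x. Of the 46 family rows in the authors' deposited table, 13 had a q-value below 0.05 for that term.

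**Figure D4:**
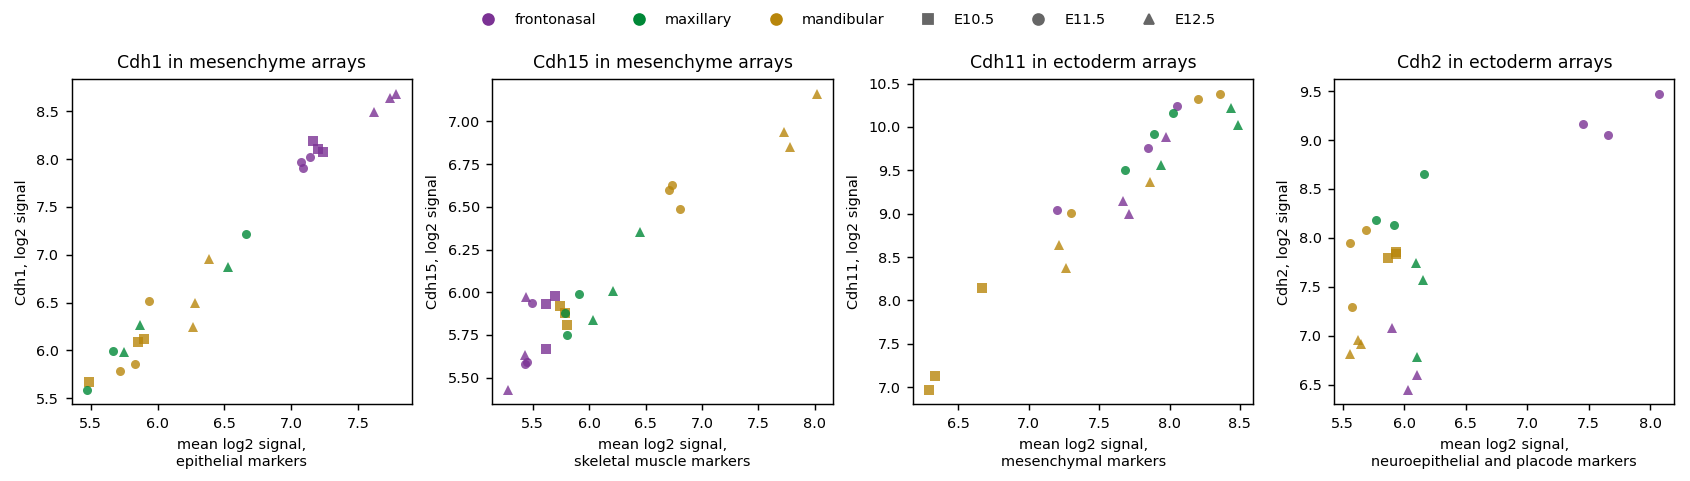
Signal of 4 cadherins on single arrays against the mean log2 signal of a marker list on the same array: Cdh1 with epithelial markers and Cdh15 with muscle markers in mesenchyme, Cdh11 with mesenchymal markers and Cdh2 with placode markers in ectoderm. The frontonasal mesenchyme arrays sit apart in the first panel (epithelial mean 7.07 to 7.79), and the frontonasal ectoderm arrays of E11.5 in the last (placode mean 7.46 to 8.07).

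Of the 20 beta protocadherins, 16 rose in mesenchyme from E10.5 to E11.5 (median 0.56, where 14.8% of all probe sets rose) and all 20 from E11.5 to E12.5 (median 0.54, where 19.4% rose). In ectoderm 9 rose over the first step (median 0.36, where 11.4% of all rose) and 12 over the second (median 0.22, where 11.9% rose). None fell in any of these comparisons. Pcdhb7 read 4.59, 4.83 and 4.93 in frontonasal mesenchyme at E10.5, 6.01, 6.17 and 6.33 at E11.5, and 7.0, 6.44 and 6.71 at E12.5. In mandibular mesenchyme it read 4.96, 5.14 and 5.40, then 6.03, 6.01 and 5.93, then 6.69, 6.77 and 6.86. Each age lay above the one before, with rises of 2.15-fold (1.11 ± 0.11, adjusted p = 3.95e-10) and 1.65-fold (0.72 ± 0.09, adjusted p = 1.94e-08).

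Pcdhb16 read 4.47, 3.80 and 4.81 in mandibular ectoderm at E10.5, 5.34, 5.39 and 5.50 at E11.5 and 6.58, 6.32 and 6.07 at E12.5. The 3 ages did not overlap, and the first rise was 2.07-fold (1.05 ± 0.20, adjusted p = 0.000177). Over all 3 prominences its second rise was 1.74-fold in ectoderm (0.80 ± 0.12, adjusted p = 8.34e-07) and 1.96-fold in mesenchyme (0.97 ± 0.12, adjusted p = 1.45e-08). Pcdhb19 went from 4.48, 3.63 and 4.31 to 5.66, 5.0 and 5.0 in mandibular ectoderm, a 2.11-fold rise (1.08 ± 0.23, adjusted p = 0.000628). Pcdhb21 was detected on none of the 3 arrays there at E10.5, and its signal was 1.65-fold higher at E11.5, a point estimate without its error.

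By single prominences, all 20 beta genes were above 0 in each of the 5 mesenchymal pairs of ages, with medians of 0.49 to 0.64. They were also all above 0 in mandibular ectoderm from E10.5 to E11.5 and in frontonasal ectoderm from E11.5 to E12.5, and 18 of 20 were above 0 in mandibular and in maxillary ectoderm from E11.5 to E12.5. Within the cluster, the 7 genes at the far end, Pcdhb16 to Pcdhb22, rose by 0.44 to 0.80 in ectoderm from E11.5 to E12.5. Of the 13 from Pcdhb2 to Pcdhb15, 5 rose, and their differences ran from 0.05 to 0.42. This split was chosen after its values were seen and was not tested. The beta genes are close copies of each other, so that probes may bind more than 1 transcript and the single genes are uncertain.

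**Figure D5:**
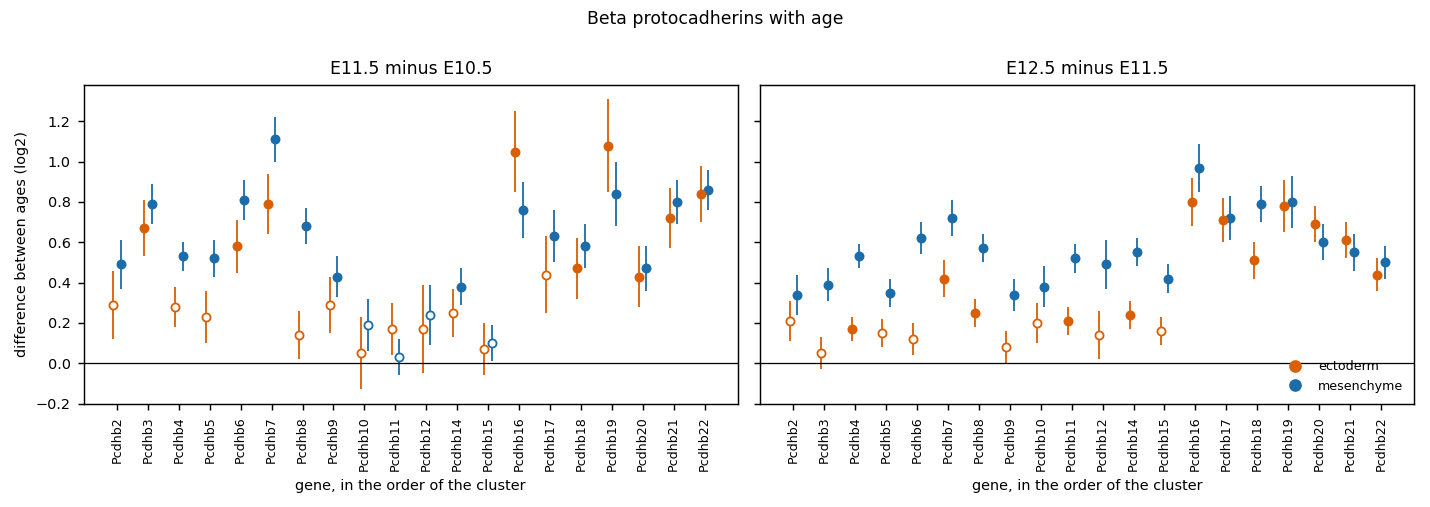
Change with age of the 20 beta protocadherins in the order in which they lie in the cluster, in log2 units, from E10.5 to E11.5 on the left and from E11.5 to E12.5 on the right; ectoderm is orange, mesenchyme blue, filled points passed the test and bars are standard errors. All 20 mesenchymal points on the right are filled and above 0, and the ectodermal points from Pcdhb16 onward lie at 0.44 or higher.

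The last comparisons ask whether an age or prominence difference depends on the layer. From E11.5 to E12.5 the change in ectoderm minus that in mesenchyme was called for 22 probe sets (47.8% of the family, background 23.9%, with 8.36% above and 15.5% below 0), 1 above 0 and 21 below. Cdh2 led with -1.75 ± 0.14 (adjusted p = 4.77e-12), as it fell in ectoderm while mesenchyme gave 0.30. Pcdh11x followed with -1.12 ± 0.15 (adjusted p = 3.26e-07), and Pcdh20 alone was above 0 (0.51 ± 0.12, adjusted p = 0.00196). In the same contrast 10 of 15 mesenchymal markers (median -0.60), 9 of 12 endothelial (-0.56), 8 of 12 muscle (-0.46), 8 of 11 neuronal (-0.75), 6 of 8 placode (-0.79) and 4 of 18 epithelial markers (-0.17) were below 0 and none above, among those called, and their part was not tested. Over the mandibular and maxillary prominences only, 17 probe sets were called, 16 of them among the 22. Pcdh20 was then 1.17 (adjusted p = 3.13e-07), Cdh2 was -1.18 (adjusted p = 2.51e-06), and Pcdh19 was not called (-0.51, adjusted p = 0.0818).

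The frontonasal minus mandibular difference depended on the layer for 10 probe sets, 7 above and 3 below 0 (21.7%, background 18.5%, with 8.63% above and 9.83% below), and centring arrays on their medians made this 6 and 7. Cdh1 gave -2.05 ± 0.23 (adjusted p = 1.67e-08), with -0.08 in ectoderm and 1.97 in mesenchyme. Epithelial markers gave 14 of 18 below 0 and none above (median -1.60). Cdh15 gave 1.19 ± 0.14 (adjusted p = 4.23e-08), with 0.10 in ectoderm and -1.09 in mesenchyme. All 12 muscle markers were above 0 (median 1.82), and the part of either list was not tested. The maxillary minus mandibular difference depended on the layer for 7 probe sets, 4 above and 3 below 0 (15.2%, background 6.68%, with 4.68% above and 2% below). Cdh3 gave 1.04 ± 0.17 (adjusted p = 5.17e-05), and Cdh6 gave -0.77 ± 0.14 (adjusted p = 0.000151), being higher in maxillary mesenchyme (0.37) and lower in maxillary ectoderm (-0.40).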

How the data were processed

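RNA from 45 tissue pools was measured on Affymetrix Mouse Gene 1.0 ST arrays, 1 array per pool, 3 per group. Per the submitters' processing notes, Affymetrix Power Tools 1.91, RMA and the build mm9 were used. The deposited values are RMA log2 signals, from 1.76 to 14.72, for 28944 probe sets. The authors' deposited detection p-values cover 35557 probe sets (apt 1.8.0, per the file headers), 6613 of them absent from the value table. The deposited model table gives symbols and q-values of a three-way ANOVA with Benjamini-Hochberg adjustment, per the labels' design text. All 46 member symbols are current in RefSeq.

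Here limma 3.58.1 (R 4.3.3) was fitted with 1 mean per group to all 45 arrays, and contrasts were moderated with eBayes. P-values were adjusted by Benjamini-Hochberg over 14472 probe sets whose variance exceeded the median of all (0.0414), at a threshold of 0.05. The number of arrays limits the precision. Folds against a group with no detected array take, per array, the higher of its lowest detected signal and the probe set's own value. They do not allow for the spread between arrays and are not minimum values. Files were summarised and plotted with Python 3.11.15, numpy 2.4.6, pandas 2.3.3 and matplotlib 3.10.9. The procedure was tested on simulated data.

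The members and the gene lists were chosen with earlier results of these data known. All members could be named, with values of single arrays for called differences of at least 1 log2 unit, and at most 4 genes per other list and comparison. Alternatives covered the variance and detection filters, the scaling, the moderation, array weights, the groups in the fit, a replicate block and leaving out arrays. Same-numbered replicates of ectoderm and mesenchyme were not treated as pairs.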

Additional observations from a re-analysis of the deposited data

Results flagged for a closer look

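Of 46 probe sets, 22 changed from E11.5 to E12.5 by different amounts in ectoderm and mesenchyme, by a limma test of the interaction with Benjamini-Hochberg adjustment. That was 47.8% of the family, where 23.9% of all probe sets tested were called. Values are the ectodermal minus the mesenchymal difference on the log2 scale. Among classical cadherins they were -1.75 for Cdh2, -0.81 for Cdh8, -0.70 for Cdh11, -0.58 for Cdh6, -0.48 for Cdh10, -0.47 for Cdh4 and -0.24 for a Cdh18 probe set. Cdh13 gave -0.29. Among delta protocadherins they were -1.12 for Pcdh11x, -0.92 for Pcdh19, -0.72 for Pcdh7, -0.66 for Pcdh10, -0.58 for Pcdh17, and -0.46 and -0.44 for Pcdh9. Pcdh20 gave 0.51. In the beta cluster they were -0.51 for Pcdhb6, -0.35 for Pcdhb4, -0.34 for Pcdhb3 and -0.32 each for Pcdhb8, Pcdhb11 and Pcdhb14. Cdh2, Cdh8 and Pcdh7 fell in ectoderm and rose in mesenchyme, as did Pcdh11x and Pcdh19. The Pcdh19 difference in ectoderm was -1.75 in the frontonasal, -0.27 in the mandibular and 0.16 in the maxillary prominence, and without the frontonasal prominence its interaction was not called (-0.51, adjusted p = 0.0818). Markers that moved in the same contrast include 10 of 15 mesenchymal (median -0.60), 8 of 11 neuronal (-0.75) and 6 of 8 placode markers (-0.79), all below 0, and their part was not tested. The 6 beta genes had positive differences in both layers.

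The frontonasal minus mandibular difference was not the same in the layers for 10 probe sets (21.7% of the family, near the 18.5% background). The interaction was -2.05 for Cdh1, -0.73 for Cdh3 and -0.70 for Cdh10. It was 1.19 for Cdh15, 0.99 for Pcdh10, 0.88 for Cdh2, 0.81 and 0.77 for Pcdh9, 0.52 for Pcdh17 and 0.38 for Pcdhb8. Both Pcdh9 probe sets were higher in frontonasal ectoderm (0.45 and 0.44) and lower in frontonasal mesenchyme (-0.36 and -0.33).

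For the maxillary minus mandibular difference the interaction passed the test for 7 probe sets (15.2% of the family, background 6.68%). It was 1.04 for Cdh3, 0.85 for Cdh15, 0.75 for Cdh2 and 0.56 for Cdh13, and -0.77 for Cdh6, -0.69 for Cdh8 and -0.54 for Pcdh7. Cdh8, like Cdh6, was lower in maxillary ectoderm (-0.30) and higher in maxillary mesenchyme (0.39).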

How the results depend on the processing

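No called difference changed sign under any alternative. Calls over the ectodermal prominences were the least stable. Frontonasal minus mandibular ectoderm had 17 calls, 8 in a fit on the compared groups alone and 11 without the 3 arrays of high median (an alternative added after the data were seen). Frontonasal minus maxillary ectoderm had 7, and 2 in the fit on the compared groups, 4 with arrays centred on their medians and 3 after quantile normalisation. Averaging age over the mandibular and maxillary prominences, also added later, gave 17 calls in ectoderm from E11.5 to E12.5, against 26. In that average the ectodermal difference of Pcdh19 was -0.05 against -0.62, that of Pcdh17 -0.09 against -0.29 and that of Cdh13 0.05 against 0.25. For the other alternatives the cause was not tested. With each array left out in turn, the calls ran from 36 to 40 for layer, 13 to 17, 12 to 14 and 12 to 15 for frontonasal minus mandibular, maxillary minus mandibular and frontonasal minus maxillary mesenchyme, and 12 to 20, 7 to 10 and 4 to 8 for the same pairs in ectoderm. For age they ran from 29 to 33 and 34 to 39 in mesenchyme and from 11 to 23 and 23 to 26 in ectoderm. For layer by age they ran from 20 to 24, and for layer by prominence from 9 to 12 and 7 to 9. Whether replicate numbers pair the layers was not settled, as each group holds only 3 arrays. Over 21 same-numbered pairs the correlation ran from -0.42 to 0.36, and 10 correlated best with their own number among 3 candidates. With the replicate block, layer by age had 23 calls and mesenchyme from E11.5 to E12.5 had 35, and 3 calls of single genes were lost. Among called differences of at least 1 log2 unit, only Pcdh10 in ectoderm from E10.5 to E11.5 lost its call under an alternative. Signal near background limits Pcdhb12, detected on 16 of 45 arrays, and Pcdhb9 and Pcdhb10, detected on 25.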
